A study of Mus musculus with 8 samples.

Results

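The enzymes of glycolysis were examined in mouse induced pluripotent stem (iPS) cells, together with Pdk1, a kinase that curbs the mitochondrial use of pyruvate. The 10 genes were Hk1, Hk2, Pfkl, Pfkp, Aldoa, Pgk1, Eno1, Pkm, Ldha and Pdk1, and every probe set annotated to exactly 1 of them was taken. This gave 23 of the 45101 probe sets on the array, which read 9 of the 10 genes. Eno1 has no probe set annotated to it alone in the annotation used here and was not analysed here. The 23 probe sets were 2 of Hk1, 1 of Hk2, 3 of Pfkl, 3 of Pfkp, 5 of Aldoa, 3 of Pgk1, 1 of Pkm, 1 of Ldha and 4 of Pdk1. A further probe set that names Hk1 beside other genes was left out.

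RNA came from 8 iPS clones, 4 derived with ascorbic acid and 4 derived without it, with 1 Affymetrix mouse 3′ expression array per clone. All 8 clones were made from embryonic fibroblasts of Col-OKSM mice, in which doxycycline induces Oct4, Sox2, Klf4 and cMyc, and both groups were cultured with LIF, serum and doxycycline on irradiated feeder fibroblasts. Feeders were depleted by preplating before RNA extraction. The labels call the clones biological replicates without naming separate embryos, so every p-value below measures the spread between these clones.

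Glycolysis splits glucose into pyruvate in the cytosol and yields ATP without oxygen. Hexokinases trap glucose as its phosphate, phosphofructokinases commit it to the pathway, and aldolase, phosphoglycerate kinase, enolase and pyruvate kinase carry it to pyruvate, which lactate dehydrogenase reduces to lactate. Pdk1 phosphorylates and inactivates the pyruvate dehydrogenase complex in the mitochondrial matrix, which otherwise turns imported pyruvate into acetyl-CoA. Cultured pluripotent cells are known for a high glycolytic rate, and many of these genes are targets of the hypoxia-inducible factor HIF1 and of Myc. Ascorbic acid is a cofactor of the prolyl hydroxylases that mark HIF for degradation, which links the vitamin to this pathway in general biochemistry.

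Promoter sequence is shown for Ldha, Pgk1, Hk2 and Pdk1, because these genes are known HIF1 targets. HIF1 binds DNA at short sites, of which ACGTG is a form. The windows are the 250 bases before an annotated start, 5′ to 3′ on the gene's strand, from RefSeq on GRCm38.p6. Capitals mark every ACGTG on either strand. Runs of CACGTG, which Myc also binds, hold the motif on both strands. Ldha is from chr7:46845554-46845803, plus strand, the first of its 2 windows in the table. Pgk1 is from chrX:106186850-106187099, plus strand. Hk2 is from chr6:82774455-82774704, minus strand. Pdk1 is from chr2:71872974-71873223, plus strand, the first of its 2 windows.

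Ldha: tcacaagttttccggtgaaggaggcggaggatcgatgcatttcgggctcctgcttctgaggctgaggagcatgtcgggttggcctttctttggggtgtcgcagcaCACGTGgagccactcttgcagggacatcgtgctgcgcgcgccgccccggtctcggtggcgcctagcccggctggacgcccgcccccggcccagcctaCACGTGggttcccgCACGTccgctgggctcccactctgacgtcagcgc
Pgk1: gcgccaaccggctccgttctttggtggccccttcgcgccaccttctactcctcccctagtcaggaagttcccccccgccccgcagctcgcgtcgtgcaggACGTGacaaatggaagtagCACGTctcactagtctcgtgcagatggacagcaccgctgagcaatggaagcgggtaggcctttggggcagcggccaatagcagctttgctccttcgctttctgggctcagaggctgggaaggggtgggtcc
Hk2: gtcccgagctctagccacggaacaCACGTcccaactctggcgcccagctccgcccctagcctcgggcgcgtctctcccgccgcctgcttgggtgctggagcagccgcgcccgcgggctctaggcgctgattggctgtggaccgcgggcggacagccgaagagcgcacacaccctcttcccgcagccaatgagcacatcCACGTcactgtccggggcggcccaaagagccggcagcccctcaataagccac
Pdk1: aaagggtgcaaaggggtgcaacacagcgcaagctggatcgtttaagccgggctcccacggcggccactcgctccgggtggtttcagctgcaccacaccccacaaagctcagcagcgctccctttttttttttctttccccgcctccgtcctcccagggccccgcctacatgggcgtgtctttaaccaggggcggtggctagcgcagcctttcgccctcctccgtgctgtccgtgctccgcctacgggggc

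Counted over both strands, the Ldha window had 5 matches, of which 2 pairs were the same CACGTG read on each strand, and the Pgk1 and Hk2 windows had 2 matches each. The Pdk1 window had 0 matches to ACGTG, and other forms of the HIF1 site were not searched. Of the 18 windows of the 10 genes, 6 held the motif, in 5 genes (Ldha, Pgk1, Hk2, Aldoa and Pkm). Among all 32851 RefSeq windows of this length 16.6% held it, in 18.5% of 27025 genes. A match describes the letters in the window and is not a measured binding site.

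The deposited values are signal intensities per probe set, and a probe set's brightness depends on its probes, so levels are compared between clones and not between probe sets. Array median signals were 134 to 156 with and 144 to 153 without ascorbic acid. The 3′ to 5′ ratio of the Gapdh control probe sets, a measure of RNA integrity from a glycolytic transcript, ran from 0.773 to 0.832 with ascorbic acid and from 0.766 to 0.804 in the other group. That of the actin controls ran from 1.22 to 1.28 with and from 1.14 to 1.26 without ascorbic acid. Both ratios were lowest in clone 4 without ascorbic acid. The share of an array's signal held by its 100 brightest probe sets outside these enzymes spanned 6.11% to 7.84% with ascorbic acid and 6.65% to 8.41% in the other group. It was lowest in clone 1 with and highest in clone 4 without ascorbic acid, and it recurs below because the brightest enzymes moved with it.

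None of the 9 glycolytic genes differed between the clones derived with and without ascorbic acid past the threshold. On the brightest probe set of each gene, 8 were lower and 1, Pdk1, was higher with ascorbic acid, by 0.06 to 0.25 on the log2 scale, and 0 passed an adjusted p of 0.05 in limma over 13126 genes (smallest adjusted p = 0.798, for Pfkp). Over all tested genes the called share was 0.0229%, or 3 genes, so a count of 0 among 9 is near the background. An unadjusted limma p under 0.05 was reached by 2 of the 9, Pfkp and Pdk1, against 5.84% of all tested genes. In 0 of the 9 were the groups free of overlap, against 3.63% of all tested genes. The median log2 difference of the 9 was -0.17, beside -0.0042 over all tested genes. The count of 2 moved with single clones. Among the clones with ascorbic acid, leaving out clone 3 gave 6, clone 1 gave 1, which was Hk1, and clone 4 gave 0. Among those without, leaving out clone 2 gave 5, Pdk1 not among them, clone 1 gave 1, Pdk1, and clone 4 gave 1, Pfkp.

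The hexokinases were read well above the dim limit in every clone, which is a signal of about 93.7 and removes the dimmest 40% of probe sets. Hk2, the inducible hexokinase of growing and embryonic cells, read 6988, 8162, 7648 and 7058 in clones 1 to 4 with ascorbic acid, against 8344, 7476, 7553 and 7963 in clones 1 to 4 without. The groups overlapped, and the log2 difference was -0.07 ± 0.07 (SE), with a 95% interval of the fold from 0.860 to 1.05. Hk1, the hexokinase found in most tissues, read 2538, 2260, 2471 and 1982 with ascorbic acid, against 2452, 2694, 2565 and 2427 without. Clone 4 with ascorbic acid was the lowest, and the log2 difference was -0.14 ± 0.08 (SE; limma, adjusted p = 0.843), or -0.065 without that clone and -0.27 with the mean of both Hk1 probe sets. That of Hk2 was -0.041, -0.115 and -0.045 without clones 1, 2 and 4 with ascorbic acid, and -0.040 without clone 1 of the other group.

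The phosphofructokinases catalyse the committed step. Pfkp, the platelet-type form, read 3835, 4754, 4452 and 3338 with ascorbic acid, against 5155, 4986, 4478 and 4775 without. Clones 1, 3 and 4 with ascorbic acid lay below every clone of the other group, clone 3 only narrowly, while clone 2 overlapped it. The log2 difference was -0.25 ± 0.10 (SE; 95% interval -0.47 to -0.04; limma, adjusted p = 0.798), and -0.16 without clone 4 with ascorbic acid. Pfkl, the liver-type form, read 7540, 8796, 8000 and 8382 with ascorbic acid, against 8237, 7777, 8212 and 10121 without. The difference of -0.06 ± 0.08 (SE) turned to 0.017 when clone 4 without ascorbic acid, the highest, was left out, and was -0.11 without clone 2 of that group. It was -0.026 and -0.10 without clones 1 and 2 with ascorbic acid.

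**Figure D1:**
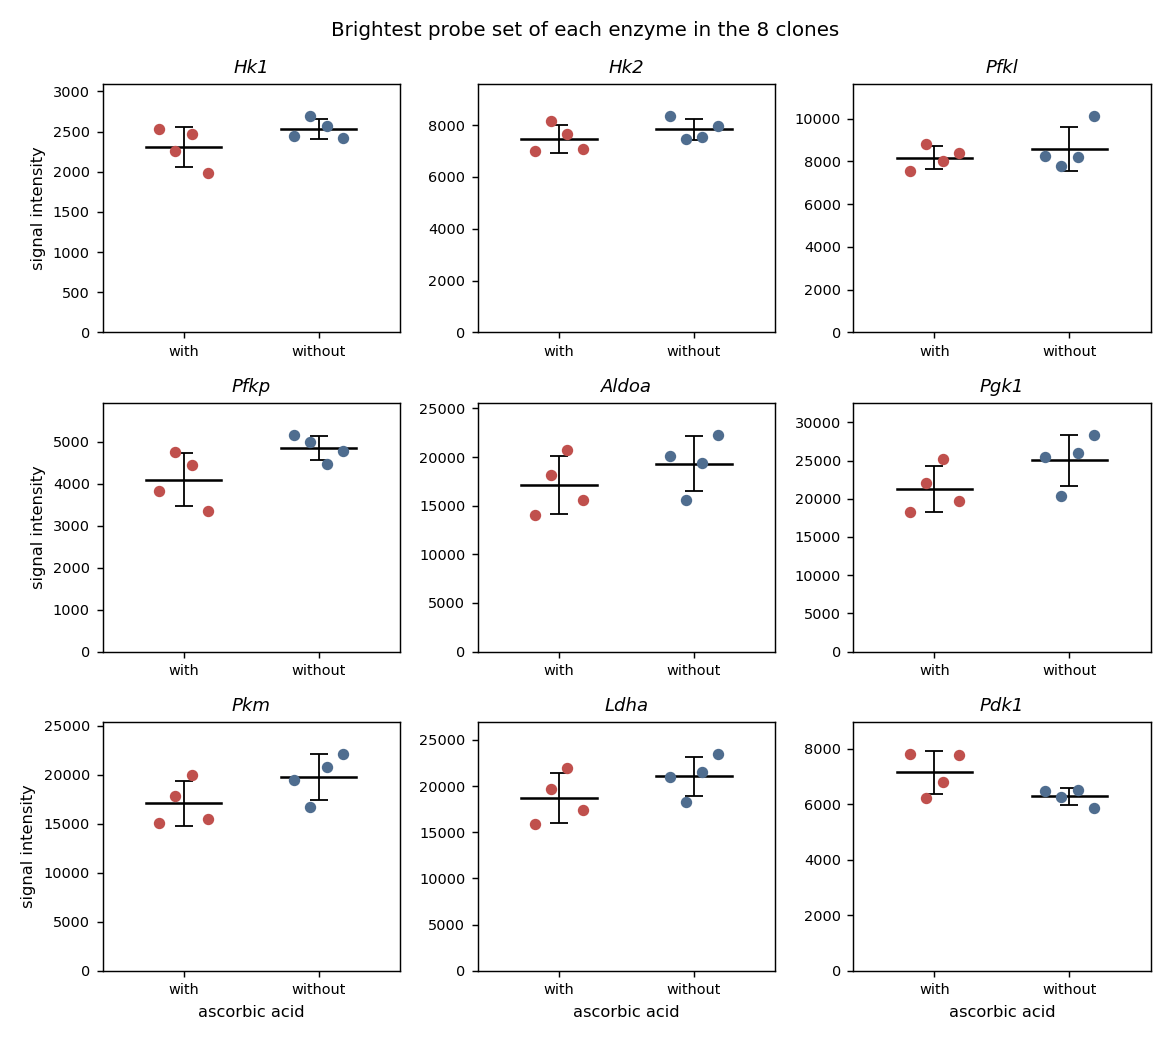
Signal intensity (linear axis from 0) of the brightest probe set of each of the 9 genes; points are clones, 4 with ascorbic acid (left, red) and 4 without (right, blue), bars are group means and error bars SD. The groups overlap in all 9 genes. Aldoa, Pgk1, Pkm and Ldha have the same lowest clone, clone 1 with ascorbic acid, and the same highest, clone 4 without.

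The later steps of the pathway were read by 4 of the brightest genes on the array, all within the brightest 1%. Pgk1, phosphoglycerate kinase, makes the first ATP of the pathway's payoff phase. It read 18250, 22083, 25190 and 19760 with ascorbic acid, against 25419, 20349, 26030 and 28317 without. Ldha, the lactate dehydrogenase subunit that favours lactate formation, read 15867, 19651, 22010 and 17363 with ascorbic acid, against 20995, 18315, 21484 and 23440 without. In both genes clones 1 and 4 with ascorbic acid lay below all other clones, and clone 3 with ascorbic acid lay among the clones without.

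Pkm, which encodes the muscle-type pyruvate kinases, read 15030, 17791, 19952 and 15466 with ascorbic acid, against 19460, 16691, 20827 and 22072 without. Aldoa, the main aldolase outside liver and brain, read 14032, 18177, 20713 and 15558 with ascorbic acid, against 20101, 15541, 19403 and 22242 without. The order of the clones was nearly the same as for Pgk1 and Ldha. The log2 difference was -0.23 ± 0.12 for Pgk1, -0.21 ± 0.11 for Pkm, -0.18 ± 0.13 for Aldoa and -0.17 ± 0.11 for Ldha (SE, n = 4 clones each; limma, adjusted p = 0.843 to 0.873). The 95% intervals allow folds from 0.713 to 1.02 for Pgk1 and from 0.753 to 1.04 for Ldha. Without clone 1 with ascorbic acid the log2 difference was -0.099 for Ldha and -0.088 for Aldoa. That of Aldoa was also -0.28 without clone 3 with ascorbic acid, and -0.28 and -0.11 without clones 2 and 4 of the other group.

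These 4 genes moved with the bright end of the arrays. The share of signal in the 100 brightest other probe sets correlated over the 8 clones with the log2 signal of Pgk1 at Pearson r = 0.997, Pkm at 0.995, Ldha at 0.983 and Aldoa at 0.973 (exact permutation, adjusted p = 0.000149 to 0.000558 over the 9 genes). Spearman's rho was 0.976, 1.00, 0.976 and 0.905 in the same order of genes (exact permutation, adjusted p = 0.000446 to 0.0103). Without the clones at the ends of the share, clone 1 with and clone 4 without ascorbic acid, r was still 0.944 to 0.995. For Hk1, Hk2, Pfkl, Pfkp and Pdk1 r lay between -0.69 and 0.66, and no adjusted p passed (exact permutation, adjusted p = 0.111 to 0.619). This relation was examined after the values had been seen. The 4 genes are themselves in the brightest 1%, and no r is given here for other genes of that brightness. These p-values therefore do not set the enzymes apart from other bright genes.

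The same shift was present in other bright genes. Of the 132 genes in the brightest 1% of tested genes 129 were lower with ascorbic acid, with a median log2 difference of -0.14. Without these 4 enzymes it was 125 of 128, also with a median of -0.14, whereas 51.4% of all tested genes were lower. The Gapdh 3′ control probe set, a reading of the glycolytic dehydrogenase outside the gene comparison, had 14687, 19595, 23460 and 16550 with ascorbic acid, against 21890, 16567, 23649 and 24564 without, with the same lowest and highest clones as Pgk1.

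Quantile normalization, which gives every array the same distribution of signals, narrowed the 8 clones of Pgk1 to a span of 0.075 log2, compared with 0.63 as deposited, and those of Ldha to 0.074, compared with 0.56. Pkm narrowed to 0.15, compared with 0.55, and Aldoa to 0.23, compared with 0.66. The differences became -0.037 for Pgk1, compared with -0.23 as deposited, and -0.058 for Pkm, compared with -0.21. That of Aldoa became -0.027, compared with -0.18, and that of Ldha -0.0033, compared with -0.17. Pfkp, at -0.26, and Pdk1, at 0.20, kept their size. Over the 8 clones r with the share was then 0.783 for Pgk1, 0.771 for Aldoa, 0.582 for Pkm, 0.293 for Ldha and -0.781 for Pdk1, with rho of 0.738, 0.690, 0.619, 0.216 and -0.671 in that order of genes, and no adjusted p over the 9 genes passed (exact permutation, 0.0934 to 0.645 for r and 0.229 to 0.840 for rho). Without clone 1 with and clone 4 without ascorbic acid these r were 0.608, 0.499, 0.490, -0.277 and -0.521. A probe set near the top of every array is held near a fixed value by this step, and how far the deposited shift is scaling or RNA was not tested.

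**Figure D2:**
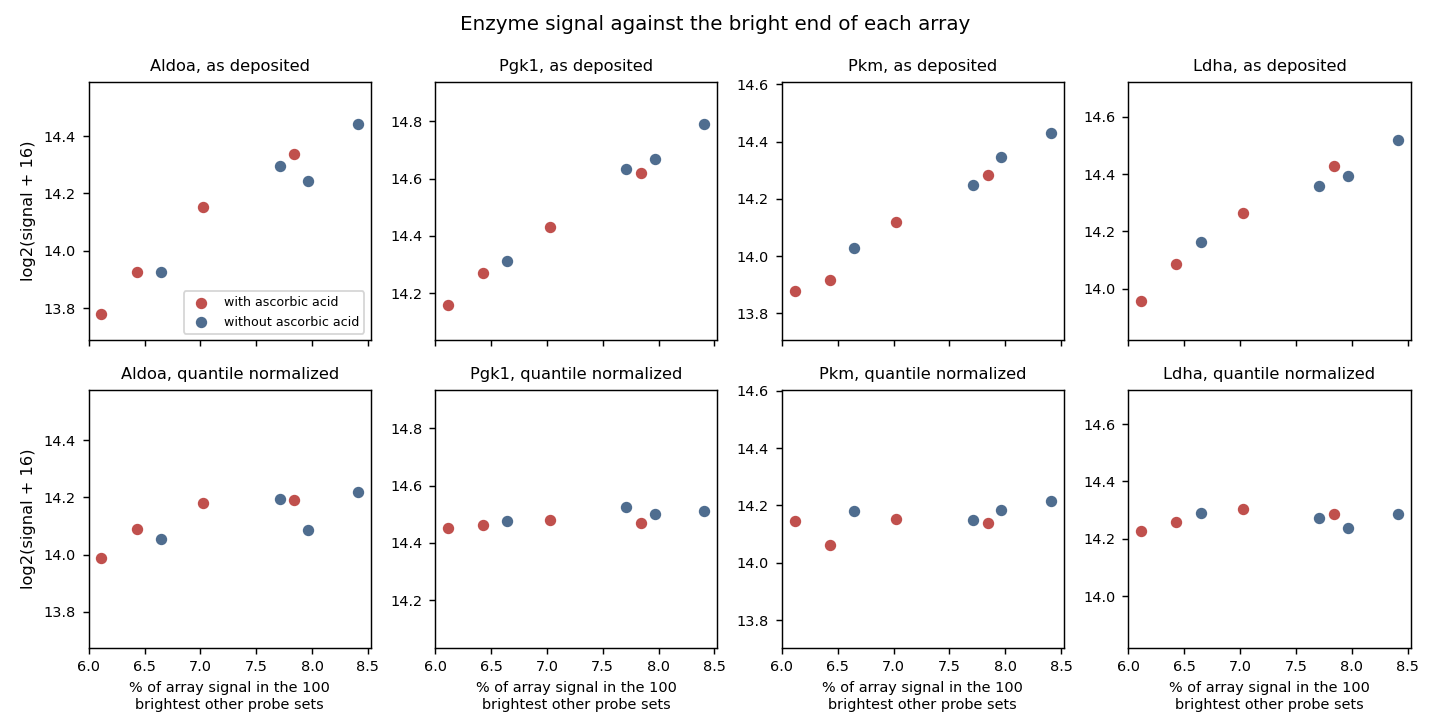
Log2(signal + 16) of Aldoa, Pgk1, Pkm and Ldha against the percent of each array's summed signal that its 100 brightest other probe sets hold; points are the 8 clones, with ascorbic acid in red and without in blue, as deposited (top) and after quantile normalization (bottom), each panel spanning the same range of log2 units. The 4 genes climb with the share as deposited and span 0.074 to 0.23 log2 after normalization, where r with the share is 0.293 to 0.783.

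Pdk1 lay on the other side of 0. Its brightest probe set read 7803, 6221, 6815 and 7779 with ascorbic acid, against 6499, 6268, 6524 and 5856 without. Clones 1, 3 and 4 with ascorbic acid lay above all clones of the other group, and clone 2 lay among them. The log2 difference was 0.18 ± 0.08 (SE; 95% interval 0.0099 to 0.35; limma, adjusted p = 0.827), or 0.21 with median centring and 0.20 with quantile normalization. The next probe set read 4447, 4281, 4357 and 4340 with ascorbic acid, against 4290, 3686, 4045 and 4185 without, a log2 difference of 0.11 ± 0.06 (SE). The third probe set gave 0.04 ± 0.11. The fourth was below the dim limit, at 9.86 to 31.3 with and 33.3 to 66.2 without ascorbic acid, and was not tested. Its groups did not overlap and ran opposite to the other 3.

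Across all probe sets of the 9 genes, 22 of 23 lay above the dim limit, of which 4 lay above 0 and 18 below 0 for with minus without ascorbic acid, and 0 were called in the fit over 27023 probe sets (smallest adjusted p = 0.848). The called share of all probe sets was 0.0481%. An unadjusted limma p under 0.05 was found for 3 of the 22, 1 each of Hk1, Pfkp and Pdk1, against 5.55% of all tested probe sets. Probe sets of 1 gene share their transcript and are not replicates. The 3 probe sets of Pfkp were at -0.25, -0.17 and -0.18, and 4 of the 5 of Aldoa at -0.13 to -0.18 with the fifth at -0.0076. Pgk1 disagreed with itself: 2 of its probe sets were at -0.23 and -0.16, while another, of the _x_at class, which can also read related transcripts, was at 0.09 ± 0.19 (SE). The brightest Pgk1 probe set and all 5 of Aldoa are of that class too.

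Hk1 showed the widest gap between probe sets of 1 gene that were both lower. Its dimmer probe set read 811, 1102, 768 and 623 with ascorbic acid, against 1141, 985, 1006 and 1156 without. Clones 1, 3 and 4 with ascorbic acid were below all clones of the other group. The log2 difference was -0.40 ± 0.14 (SE; limma over all probe sets, adjusted p = 0.848), compared with -0.14 for the brighter one. Both are of the _a_at class, which reads several transcripts of 1 gene, and the files do not say which transcripts each covers.

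**Figure D3:**
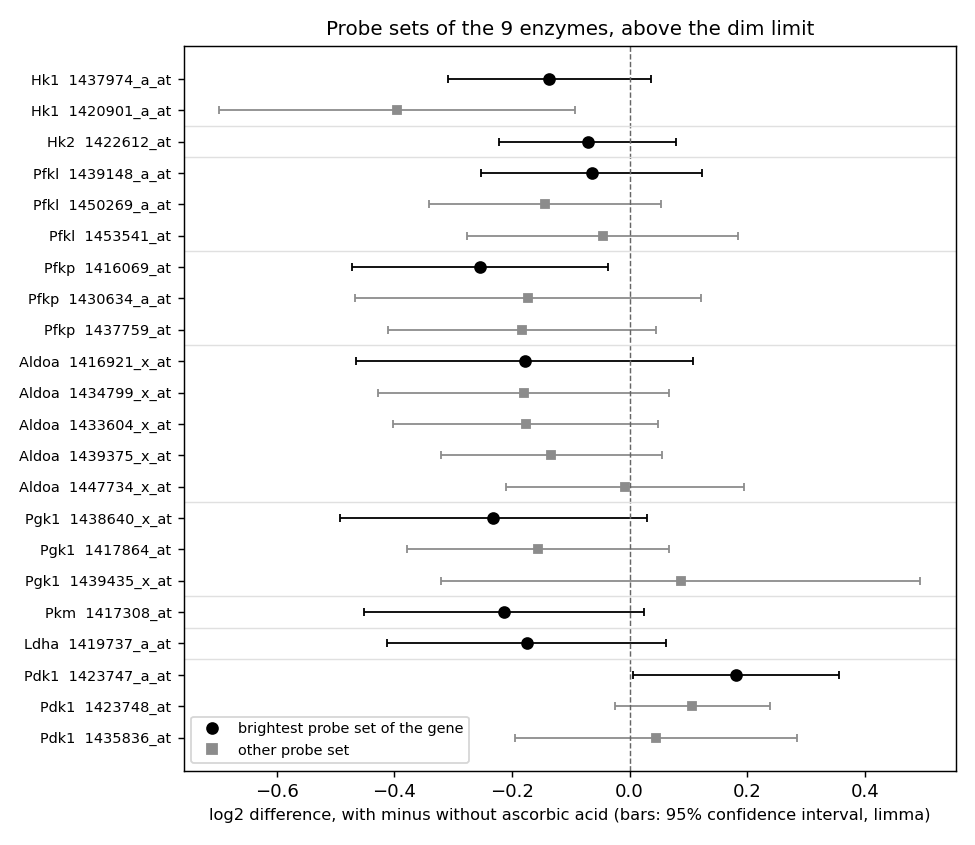
Log2 difference, with minus without ascorbic acid, of the 22 probe sets above the dim limit; black circles are the brightest probe set of a gene, grey squares the others, and bars the 95% confidence interval from limma over all probe sets. The lowest value, -0.40, is that of the dimmer Hk1 probe set, and the 3 Pdk1 probe sets lie right of 0.

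The choice between isoenzymes was followed as the log2 difference of 2 genes in the same clone, although the 2 probe sets cannot be compared in level. Such a difference can be compared between clones only as far as both probe sets follow the array scaling alike. The shift at the bright end described above need not cancel where 1 probe set of a pair is much brighter. Hk2 minus Hk1 averaged 1.69 ± 0.18 with and 1.62 ± 0.14 without ascorbic acid (SD over 4 clones; exact two-sided permutation p = 0.6). Pfkp minus Pfkl averaged -1.01 ± 0.22 with and -0.82 ± 0.20 without (SD over 4 clones; exact permutation p = 0.257). The groups overlapped in both pairs. When all probe sets of a gene were averaged, the difference between groups was 0.19 for Hk2 minus Hk1, compared with 0.065, and -0.12 for Pfkp minus Pfkl, compared with -0.19 (exact permutation p = 0.0571 and 0.286). Pfkp minus Pfkl was at -0.083 when clone 4 with ascorbic acid was left out.

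The remaining pairs set each gene against a relative. Ldha minus Ldhb, the subunit that favours pyruvate formation, averaged 1.22 ± 0.09 with and 1.19 ± 0.14 without (SD over 4 clones; exact permutation p = 0.743). Aldoa minus Aldoc, the brain-type aldolase, averaged 2.86 ± 0.30 with and 2.95 ± 0.25 without (SD over 4 clones; exact permutation p = 0.6). Pdk1 minus Pdk3 averaged 2.13 ± 0.20 with and 2.01 ± 0.08 without (SD over 4 clones; exact permutation p = 0.314). Adjusted over the 5 pairs every p was 0.743, and 0.0286 is the smallest p that 70 assignments of the clones can give. Under quantile normalization the difference between groups turned from -0.091 to 0.072 for Aldoa minus Aldoc. For Ldha minus Ldhb it went from 0.034 to 0.18. How far array scaling moves these pairs was not tested. The splice forms of Pkm, of which embryonic and dividing cells mainly make the second, could not be told apart, because 1 probe set reads the gene.

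**Figure D4:**
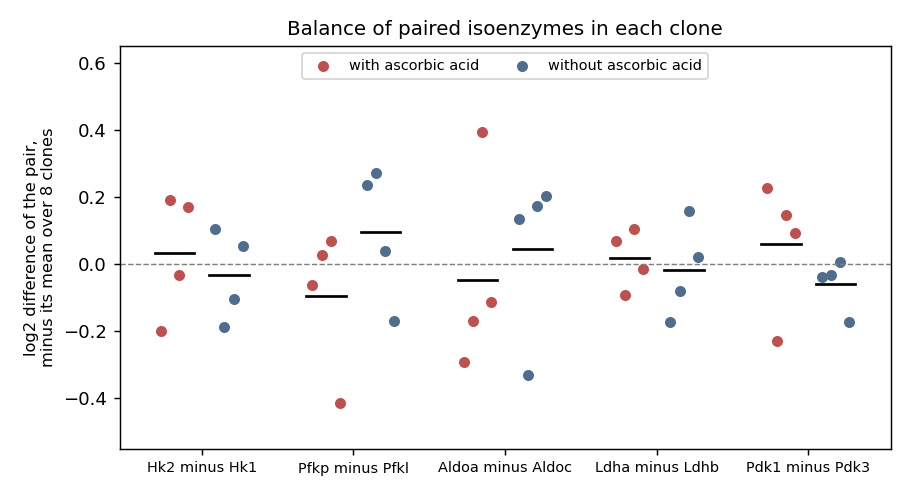
Log2 difference of each pair of isoenzymes in each clone, minus the pair's mean over the 8 clones; red points are clones with ascorbic acid and blue points clones without, and black bars are group means. Values are as deposited, and the groups overlap in all 5 pairs.

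The relatives of these enzymes lay on both sides of the dim limit, a rank cut that does not show whether a gene is expressed. Above the dim limit were Pfkm (1417 ± 127 with and 1574 ± 105 without ascorbic acid), the muscle-type phosphofructokinase, and Aldoc (2334 ± 271 with and 2471 ± 143 without). Ldhb read 8013 ± 1178 with and 9230 ± 1022 without, and Eno2, the neuronal enolase, 262 ± 51.8 with and 238 ± 53.9 without. Pklr, at a mean of 310 with and 287 without, and Gapdhs, at 276 and 286, were above the limit too. So were Hk3 (173 and 186), Eno4 (194 and 164) and Ldhc (117 and 140). Below the limit in the mean over the clones were Hkdc1, at 33 ± 19.3 with and 48.6 ± 10.4 without, and Pgk2, the testis form of phosphoglycerate kinase, at 17.9 ± 5.5 with and 25.8 ± 15.4 without (SD over 4 clones throughout). Of the other kinases of pyruvate dehydrogenase, Pdk3 read 1624 ± 131 with and 1550 ± 27.1 without, Pdk4 633 ± 82.3 with and 620 ± 8.42 without, and Pdk2 214 ± 18 with and 271 ± 50.3 without.

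How the enzymes varied together was described for 5 pairs over the 8 clones. Pgk1 and Ldha correlated at r = 0.983 and rho = 0.929 (exact permutation, adjusted p = 0.000496 and 0.0112 over the 5 pairs), and r was 0.969 without the 2 clones farthest from the median of Pgk1. After quantile normalization r was 0.229 (exact permutation, unadjusted p = 0.578). Ldha and Pdk1 gave r = -0.755 and rho = -0.548 (exact permutation, adjusted p = 0.0788 and 0.285), and r was -0.080 without clones 1 and 4 with ascorbic acid, so this relation rests on those clones. Pgk1 and Pdk1 gave r = -0.703 and rho = -0.619 (exact permutation, adjusted p = 0.0952 and 0.285), and -0.326 without 2 clones. Hk2 and Hk1 gave r = 0.126 and rho = -0.310 (adjusted exact permutation p = 0.794 and 0.577), and Pfkp and Pfkl r = 0.226 and rho = 0.190 (adjusted exact permutation p = 0.714 and 0.665). The points of each pair share an array and its scaling. Groups of 4 are too small for a correlation within a group.

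Markers of both cell types that a dish could hold were read beside these results. The defining pluripotency genes Pou5f1, Sox2, Nanog, Esrrb and Zfp42 were above the dim limit in both groups, and so were the fibroblast markers Col1a1, Col1a2, Col3a1, Thy1 and Postn. Of 40 tested fibroblast and feeder markers 35 were lower and 5 higher with ascorbic acid, with a median log2 difference of -0.16, 0 past the threshold. An unadjusted limma p under 0.05 was found for 10 of the 40, or 25%, of which 9 were lower and 1, Twist1, a mesenchymal transcription factor, was higher (0.52 ± 0.16, SE; limma, adjusted p = 0.749). Their summed signal spanned 79484 to 96356 with ascorbic acid and 90288 to 98623 in the other group, and 4 further markers (Lum, Dcn, Twist2 and Meox2) lay below the dim limit. Postn, Fbln1 and Fstl1 were the fibroblast markers whose groups did not overlap, or 7.5% of the 40 against the 3.63% of all tested genes, and each was lower. Col1a1 spanned 1707 to 3243 with ascorbic acid and 2947 to 3440 in the other group. Of 26 pluripotency markers 21 were lower and 5 higher, with a median of -0.09, 0 past the threshold and 4, all lower, with an unadjusted limma p under 0.05 (15.4%, against 5.84% of all tested genes). The groups did not overlap in 2 of the 26, Klf2 (-0.30 ± 0.08) and Tbx3 (-0.28 ± 0.07; SE; limma, adjusted p = 0.698 and 0.616), both lower.

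Pfkp moved with the summed fibroblast signal over the 8 clones (r = 0.852, rho = 0.881; exact permutation, adjusted p = 0.0152 for r over the 9 genes, unadjusted p = 0.00724 for rho), and r was 0.918 without clones 3 and 4 with ascorbic acid. The other 8 genes gave r from -0.76 for Pdk1 to 0.69 for Hk2, with no adjusted p past the threshold (exact permutation, adjusted p = 0.139 to 0.775). This relation too was examined after the values had been seen, and the part of feeder RNA in the Pfkp value was not tested. The 8 clones were pooled, and Pfkp and most fibroblast markers were lower with ascorbic acid, so its r includes the difference between groups. In bulk RNA, fewer cells of a type and less RNA per cell cannot be told apart.

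The rest of the pathway was read from 7 lists with 76 tested genes in all, of which 34 lay above 0, 42 lay below 0 and 0 passed (median log2 difference -0.01). An unadjusted limma p under 0.05 was found for 6, or 7.89%, near the 5.84% of all tested genes. Of 15 other glycolytic enzymes 6 were higher and 9 lower (median -0.04). The 2 with the smallest p were Pgam2, the muscle form of phosphoglycerate mutase, and Eno3, the muscle enolase. Pgam2 read 292, 309, 357 and 87.1 with ascorbic acid, against 82.2, 87.2, 94.6 and 266 without, so that 1 clone of each group sat at the level of the other group (limma, adjusted p = 0.843). Eno3 read 642 ± 50.9 with and 559 ± 51.4 without (SD over 4 clones; adjusted p = 0.843 in limma). Tpi1, triose phosphate isomerase, was at 12488 ± 1722 with and 12474 ± 552 without.

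Transport of glucose in and lactate out showed 1 of 8 tested genes higher and 7 lower (median -0.08). Slc2a3, the high-affinity glucose transporter, read 19995 ± 3229 with and 22858 ± 3181 without, and Slc2a1, the widespread one, 15732 ± 1420 with and 16595 ± 1554 without (SD over 4 clones; adjusted p = 0.847 and 0.928 in limma). Slc2a3 stands in the same bright range as Pgk1 and had the same lowest and highest clones. The lactate carriers Slc16a1 and Slc16a3 were at log2 differences of -0.0077 and -0.09, and Bsg, their chaperone, at -0.11.

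Around pyruvate dehydrogenase 7 of 12 genes were higher and 5 lower (median 0.02). An unadjusted limma p under 0.05 was found for 2 of the 12 (16.7%, against 5.84% of all tested genes). Pdp2, a phosphatase that undoes what Pdk1 does, read 240, 175, 151 and 191 with ascorbic acid, against 236, 251, 301 and 250 without, a log2 difference of -0.44 ± 0.15 (SE; limma, adjusted p = 0.766). Clone 1 with ascorbic acid lay within the range of the other group. Mpc1, a subunit of the mitochondrial pyruvate carrier, read 1040 ± 104 with and 899 ± 85.9 without (SD over 4 clones; adjusted p = 0.833 in limma).

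Enzymes that make or remove the phosphofructokinase activator, with those of gluconeogenesis, were higher in 3 and lower in 5 of 8 (median -0.02). Pfkfb4, an enzyme that makes and degrades this activator, was at -0.25 ± 0.11 and Tigar, which degrades it, at 0.22 ± 0.14 (SE; limma, adjusted p = 0.824 and 0.843). The pentose phosphate pathway, which branches off after hexokinase, was higher in 5 and lower in 5 of 10 (median -0.0011), with Prps2 at 0.22 ± 0.13 and Pgd at -0.09 ± 0.06 (SE; limma, adjusted p = 0.843 and 0.854).

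Of 6 genes listed for the splicing of Pkm, not all of them splicing factors, 2 were higher and 4 lower (median -0.05). Ptbp1, which favours the embryonic splice form, read 10666 ± 1291 with and 11382 ± 1238 without, and Hnrnpa2b1 11518 ± 442 with and 12246 ± 506 without (SD over 4 clones; adjusted p = 0.918 and 0.858 in limma). Of 17 regulators of glycolytic genes 10 were higher and 7 lower (median 0.08). An unadjusted limma p under 0.05 was found for 3 of the 17 (17.6%, against 5.84% of all tested genes). Groups did not overlap in 1 of the 17, Mlxip (5.88%, against 3.63% of all tested genes). Mlxip, a glucose-sensing transcription factor, read 696, 652, 625 and 685 with ascorbic acid, against 526, 563, 514 and 608 without, and these groups did not overlap (log2 difference 0.26 ± 0.08, SE; limma, adjusted p = 0.749). Myc read 306, 306, 205 and 379 with ascorbic acid, against 185, 169, 251 and 141 without, a log2 difference of 0.63 ± 0.20 (SE; limma, adjusted p = 0.749), and clone 3 without ascorbic acid lay above clone 3 with it. Whether this probe set reads the doxycycline-driven cMyc transgene is not given in the sources used here. Hif1a, the oxygen-regulated subunit of HIF1, read 2821 ± 129 with and 2558 ± 196 without (SD over 4 clones; adjusted p = 0.843 in limma).

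**Figure D5:**
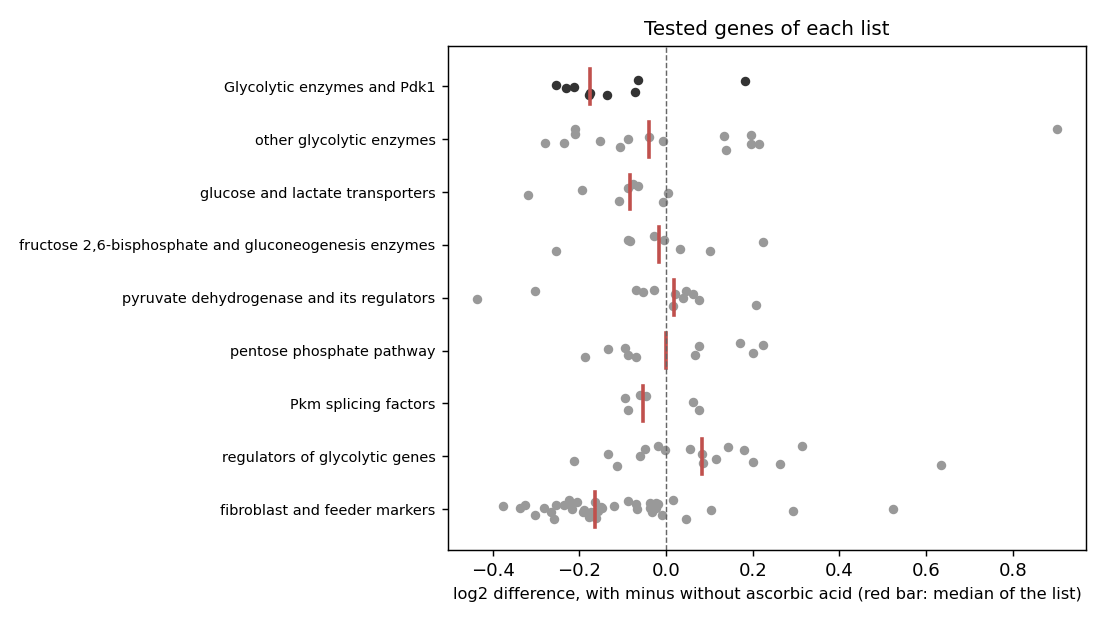
Log2 difference, with minus without ascorbic acid, of every tested gene of the 9 enzymes (black), of the 7 other pathway lists and of the fibroblast and feeder markers (grey); a red bar is the median of a list and heights within a row are spread at random. Pgam2, at 0.90, and Myc, at 0.63, lie farthest from 0, and no gene shown passed the threshold.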

How the data were processed

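Total RNA of 8 iPS clones was read on Affymetrix mouse 3′ expression arrays, 1 per clone. Per the submitters' processing notes the deposited signal intensity values came from GCOS, for which neither version nor parameters were given in the sources used here. Each array shows a mean of 500 after trimming 2% at each end. Of 45101 probe sets, 64 array controls were left out; 34945 name 1 gene, 932 several and 9160 none in GEO's platform annotation. Through Entrez identifiers 99.4% of single symbols matched RefSeq (GRCm38.p6), and 0 were renamed.

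Signals were taken as log2(signal + 16). Scaling was kept as deposited because array medians lay within 0.2 log2, at a span of 0.199, just under this limit. The dimmest 40% of probe sets were left out and the brightest probe set stood for a gene. Groups were compared with limma 3.58.1 (lmFit, eBayes with trend; R 4.3.3), two-sided, at a threshold of 0.05 on Benjamini-Hochberg p-values taken over every gene or probe set in the fit; scripts were tested on simulated data. Fold changes on this scale understate those of dim genes. Single values and correlations had exact permutation tests. The number of arrays limits the precision. Drawings used matplotlib 3.10.9. Same-numbered clones correlated at -0.17 to 0.012 in their deviations from group means, so the numbers do not pair them.

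Named were all 9 genes with a probe set, their isoenzyme partners, and from each other pathway list those past the threshold or else the 2 of lowest p, with Tpi1, Slc2a1, Slc2a3, Slc16a1, Slc16a3, Ptbp1, Hif1a and Myc in any case. Pfkm, Hkdc1, Pgk2, Pklr, Gapdhs, Hk3, Eno4, Ldhc, Pdk2, Pdk4, Fbln1 and Fstl1 were named after their values were seen. Members and lists were chosen with earlier results of these data known.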

Additional observations from a re-analysis of the deposited data

Results flagged for a closer look

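Of 56 groups of 4 clones (23 probe sets and 5 isoenzyme pairs in each group) 5, or 8.93%, held a clone far from the other 3, where chance gives about 1 in 20. A dimmer Pfkp probe set had such a clone in both groups, at 2241 in clone 2 with ascorbic acid (others 1416 to 1555) and at 2293 in clone 4 without (others 1738 to 1755). A dim Pfkl probe set gave 244 in clone 3 of those without ascorbic acid (others 254 to 255). The third Pdk1 probe set gave 623 in clone 1 of those without ascorbic acid (others 509 to 525). Aldoa minus Aldoc was 2.57 log2 in clone 2 of that group (others 3.04 to 3.10).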

How the results depend on the processing

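Under every alternative run (median centring, quantile normalization, a pseudocount of 1 or 64, a dim filter of 60% or none, averaged probe sets of a gene, no _s_at or _x_at probe sets, eBayes without trend, robust or with array weights, the replicate block and leaving out each clone), 0 of the 9 genes and, where probe sets were fitted, 0 of their probe sets passed. Aldoa has only _x_at probe sets and gave no value without them. Genes past the threshold numbered 3 as reported and ran from 1, in eBayes without trend or with robust estimation, to 4. Probe sets numbered 13 and ran from 8, in eBayes without trend, to 15, when clone 3 without ascorbic acid was left out. The number of the 9 genes with an unadjusted limma p under 0.05, 2 as reported, ran from 0 to 6, with 0 in eBayes without trend, 4 with array weights, and 1 with the replicate block, the mean of probe sets or median centring. That 1 gene was Pfkp with the block, Hk1 with the mean of probe sets and Pdk1 with median centring. With the clone number as a replicate block 3 genes and 11 probe sets passed. Of 179 recomputed differences of single genes 178 kept direction and side of the threshold. Many of these could not change direction. The dim filters, eBayes without trend, robust eBayes and the replicate block return the same difference as reported and alter only its p. Pfkl ran from -0.11 to 0.017 over clones left out. Keeping direction did not mean keeping size. Over clones left out Hk1 ran from -0.18 to -0.065, Hk2 from -0.115 to -0.040, Pfkp from -0.33 to -0.16, Aldoa from -0.28 to -0.088, Pgk1 from -0.33 to -0.16, Pkm from -0.29 to -0.16, Ldha from -0.26 to -0.099 and Pdk1 from 0.14 to 0.25. The mean of probe sets gave -0.27 for Hk1, -0.10 for Pgk1 and 0.11 for Pdk1. Over clones left out Hk2 minus Hk1 ran from 0.0125 to 0.142, Pfkp minus Pfkl from -0.277 to -0.083, Aldoa minus Aldoc from -0.238 to -0.0091 and Pdk1 minus Pdk3 from 0.062 to 0.214. Aldoa minus Aldoc turned to 0.072 under quantile normalization, and Ldha minus Ldhb to -0.016 with the mean of probe sets and ran from -0.017 to 0.093 over clones left out. The correlation of Pgk1 and Ldha lost its call under quantile normalization (0.229) and with the mean of probe sets (0.703). Ldha and Pdk1 had an unadjusted exact permutation p of 0.0315 and did not pass after adjustment. The same unadjusted p exceeded 0.05 under quantile normalization (-0.705), median centring (-0.533), averaged probe sets (-0.571) and centring on group means (-0.659). Hk2 and Hk1 turned to -0.126 on group-centred values. Pfkp and Pfkl reached 0.697 with the mean of probe sets, at an unadjusted exact permutation p of 0.0432. The causes were not tested. Array number and, for dim probe sets, signal over background limit these values.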
